A study of Mus musculus with 2 samples.

Results

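Autophagy is the process by which a cell encloses part of its own cytoplasm in a double membrane and delivers it to the lysosome for breakdown. A kinase complex built on Ulk1 starts it, a lipid kinase complex built on Pik3c3 and Becn1 marks the forming membrane, enzymes that resemble those of ubiquitin transfer attach the ATG8 proteins to that membrane, and cargo receptors tie the load to them. In neutrophils and their bone marrow precursors, autophagy is known to take part in maturation and in the release of granules. The genes described here are 48 genes of this machinery and of the kinases upstream of it, listed by name in 9 roles. Their probe sets (the short-oligonucleotide sets that measure a transcript on the array) were taken where the platform annotation gave the list's symbol and no other. This found 106 probe sets for 46 of the 48 genes, out of 45037 probe sets and 18193 genes in all. The probe sets that carry the symbol Bnip3l share it with a pseudogene and lie outside this rule, and Optn was not analysed here.

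The cells were bone marrow neutrophils, sorted as CD11b+ and Ly6G+ cells low in Ly6C. The samples carry the labels Jdp2 KO and Jdp2 WT, both on a C57BL/6 /129/J mixed background, and each was measured on 1 Affymetrix array. Jdp2 encodes a transcription factor of the AP-1 group with a leucine zipper that mostly acts as a repressor. The sources used here do not give the age or sex of the mice, the deleted part of the gene or the number of mice behind an array. With 1 array per group there is no spread between mice, no test and no p-value, and the precision of each value below is limited by that number of arrays. Values are log2 signals, and a difference is the KO-labelled array minus the WT-labelled array, so that 1 is a 2-fold difference.

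The targeted gene did not check the labels. The stronger Jdp2 probe set read 12.38 on the KO-labelled array and 11.997 on the WT-labelled array, and the weaker one read 5.40 and 5.24. The sources used here do not say whether these probes lie in the deleted part, so each direction below is that of the labels. Of 14 neutrophil markers, 12 were named on the arrays, and all 12 lay within 1.5-fold, with mean signals of 13.58 and 13.63 (KO label, then WT label). Signals this high can compress a difference. Of 3138 genes with a mean log2 signal of 10 or more, 1.4% were at least 1.5-fold lower. Ly6g and Retnlg were not analysed here. Markers of monocytes and macrophages were higher on the KO-labelled array: 12 of the 17 that passed the level filter (a value at or above the median of all probe sets on at least 1 array) reached 2-fold, the summed linear signal was 11572 against 7102, and the median difference was 1.15. Primary granule genes differed by a median of 1.95 over 8 genes. Platelet markers were higher at the median as well (0.93 over 6 genes past the filter). Their summed linear signal was 4749 on the KO-labelled array against 2806 on the WT-labelled array. Of the 6, 3 reached 2-fold as higher: Ppbp (10.86 and 8.89), Pf4 (9.70 and 8.04) and Gp1bb (8.08 and 6.98). The platelet list was not uniform, and 2 of the 6 were below 0: Itga2b (6.47 and 6.81, -0.34) and Itgb3 (10.54 and 10.73, -0.20). Of the 11 erythroid markers named on the arrays, 3 passed the filter and all 3 were below 0 by their strongest probe sets, with a summed linear signal of 898 against 1180: Car2 at 6.43 and 7.72 (-1.29), Tfrc at 9.54 and 9.81 (-0.27) and Slc4a1 at 6.05 and 6.19 (-0.14). Tfrc gave most of both sums, and its 3 probe sets ran from -0.27 to 0.11, so its sign depended on the probe set. The other 8, among them Alas2, the erythroid haem synthesis enzyme, at 3.998 and 3.86, lay under the medians of 5.67 and 5.65. Their differences went both ways, from -0.79 (Rhag) to 1.13 (Gata1). B cell markers had a median difference of 0.0046 over 6 genes past the filter, 3 of them above 0, with a summed linear signal of 1089 against 1485. The lower sum rests on the strongest of the 6, Ighm (8.85 and 9.78), whose 3 probe sets past the filter ran from -1.45 to 0.07. T and NK cell markers had a median difference of 0.30 over 5 genes, with a sum of 1583 against 1270. The part of these other cells in the differences below was not tested, and in sorted bulk cells fewer cells of a type and less RNA per cell cannot be told apart.

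Promoter sequences are shown for 4 members whose upstream windows lie outside any annotated gene, picked after their values were seen. Wipi1 and Ambra1 read lower on the KO-labelled array with each of their probe sets, Map1lc3b differed little with any of its 4, and Bnip3 holds an E-box. Each sequence is the 250 bases before the start of the gene on its own strand, from RefSeq on GRCm38.p6. Where a gene had several starts, the most upstream was used, here and in the motif search below, and windows at other starts were not searched. Wipi1 lies at chr11:109611390-109611639 (minus strand), Ambra1 at chr2:91729888-91730137 (plus strand), Map1lc3b at chr8:121590188-121590437 (plus strand) and Bnip3 at chr7:138909507-138909756 (minus strand). Capitals mark the E-box core CACGTG and the GC box GGGCGG, or its reverse complement.
Wipi1: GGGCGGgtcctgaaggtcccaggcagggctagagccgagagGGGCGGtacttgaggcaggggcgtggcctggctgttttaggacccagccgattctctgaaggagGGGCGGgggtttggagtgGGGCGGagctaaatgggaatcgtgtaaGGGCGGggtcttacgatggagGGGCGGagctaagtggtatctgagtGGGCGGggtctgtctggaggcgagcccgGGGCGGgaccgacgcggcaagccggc
Ambra1: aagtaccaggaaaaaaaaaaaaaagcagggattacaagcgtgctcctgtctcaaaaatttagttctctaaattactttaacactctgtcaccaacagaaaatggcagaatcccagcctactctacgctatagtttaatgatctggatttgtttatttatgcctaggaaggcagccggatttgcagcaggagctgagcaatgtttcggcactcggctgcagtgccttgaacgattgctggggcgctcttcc
Map1lc3b: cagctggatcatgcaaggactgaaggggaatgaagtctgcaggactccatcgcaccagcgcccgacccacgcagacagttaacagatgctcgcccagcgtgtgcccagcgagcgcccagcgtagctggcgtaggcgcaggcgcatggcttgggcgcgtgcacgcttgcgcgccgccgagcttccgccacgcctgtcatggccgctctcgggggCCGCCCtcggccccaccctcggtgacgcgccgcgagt
Bnip3: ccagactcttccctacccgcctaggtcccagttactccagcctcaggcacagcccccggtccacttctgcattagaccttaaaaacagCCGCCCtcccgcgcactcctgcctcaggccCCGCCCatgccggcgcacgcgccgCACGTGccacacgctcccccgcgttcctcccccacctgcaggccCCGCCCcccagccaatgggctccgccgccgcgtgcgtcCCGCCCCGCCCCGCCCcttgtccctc

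The Wipi1 window holds 8 GC boxes, the Bnip3 window 6 GC boxes, some of which overlap by 1 base, and 1 E-box, the Map1lc3b window 1 GC box, and the Ambra1 window none of the motifs searched. Both strands of the full windows, 250 bases before to 50 after the start, were searched for the E-box core CACGTG, the longer CLEAR element, which is that core with GT before it and AC after it and is named for Tfeb, the AP-1 element TGANTCA, the cyclic AMP response element TGACGTCA, which Jdp2 and its relatives are known to bind, and the GC box, which was added after the sequences were seen. Windows were matched for 39 of the 46 members and for 9049 of the 11168 genes past the level filter. The E-box core was in 5 member windows (Atg3, Atg5, Atg7, Atg14 and Bnip3), or 12.8%, against 9.85% of the 9049 and 7.24% of all 27025 gene windows. The cyclic AMP response element was in 2 (Atg5 and Atg16l2), or 5.13%, against 3.20% and 1.85%. Neither the CLEAR element nor the AP-1 element was in a member window, where the shares were 0.807% and 5.07% of the 9049 windows, and 0.355% and 7.92% of all 27025. The GC box was in 23 member windows, or 59.0%, against 62.2% and 35.9%. These are letters in a window, and no binding was measured.

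Most members read slightly lower on the KO-labelled array. Of the 46 members, 35 had a difference below 0 (76.1%) and 11 above 0, where 55.1% of 11168 genes past the level filter lay below 0. The median difference of the members was -0.24, and that of all genes past the filter was -0.04. Few differences were large, as among all genes: 39 of the 46 members lay within 1.5-fold, and so did 9231 of the 11168 genes. Of the members, 6 were at least 1.5-fold lower (13%, where 8.86% of all genes were) and 1 was at least 1.5-fold higher (8.49% of all genes). At the 2-fold size, 1 member was higher, Atg10, and 1 was lower, Tsc2, which is 2 of 46, where 5.39% of all genes passed that size, 3.06% as higher and 2.33% as lower. The count past 2-fold is thus near that of all genes, and the members differ from the rest of the table in how many are lower by a small amount. All 46 members passed the level filter, 3 of them (Atg10, Atg2b and Rptor) through 1 array. With each array centred on its median, 36 members were below 0, and 32 after quantile normalisation and after removal of a loess trend, with 56.9%, 51.4% and 50.7% of all genes. The signs of Atg101, Pik3c3, Fundc1 and Prkaa1, all within 0.05 of 0, changed under at least 1 of these scalings, and the other 42 kept theirs.

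**Figure D1:**
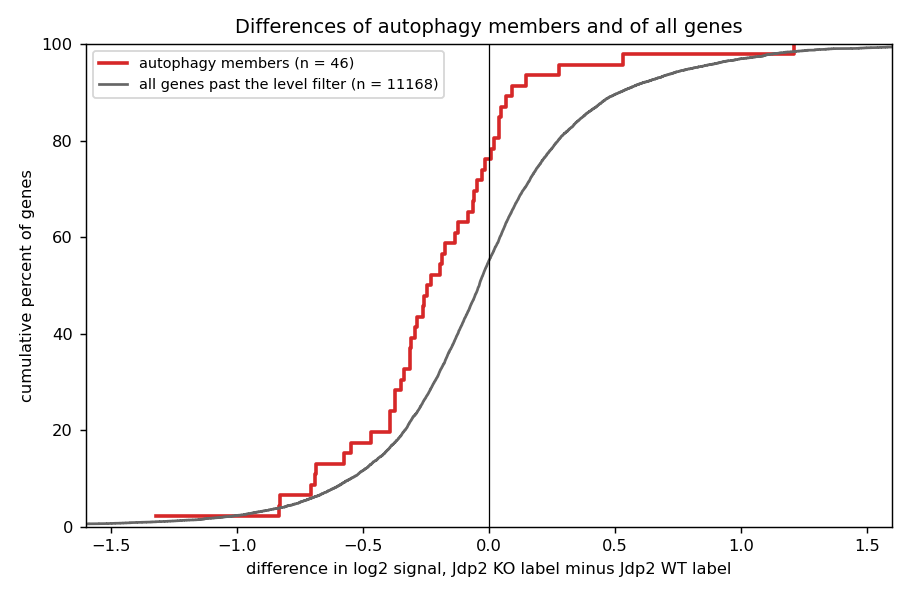
Cumulative percent of genes (vertical axis) against the difference in log2 signal, KO label minus WT label (horizontal axis), for the 46 autophagy members and for 11168 genes past the level filter. The members' curve crosses 0 at 76.1% and that of all genes at 55.1%, while the curves meet near 2-fold in both directions.

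Agreement between probe sets of a gene is the only internal repeat in these data, and it reflects shared RNA, not mice. Of 28 members with several probe sets past the filter, 12 had all of them below 0: Atg13, Ambra1, Wipi1, Wipi2, Atg4b, Atg5, Atg16l2, Map1lc3a, Gabarapl2, Calcoco1, Fundc1 and Pink1. Only Atg4c had all of them above 0, and 15 had probe sets on both sides. The like counts over all genes with several probe sets were not computed, so these counts do not set the members apart. The median SD of the difference over the probe sets of a member was 0.17. Counted by probe set, 70 of the 92 past the filter were below 0 (76.1%, where 56.4% of 19604 probe sets of all genes were), and the other 14 member probe sets lay under the median on both arrays.

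**Figure D2:**
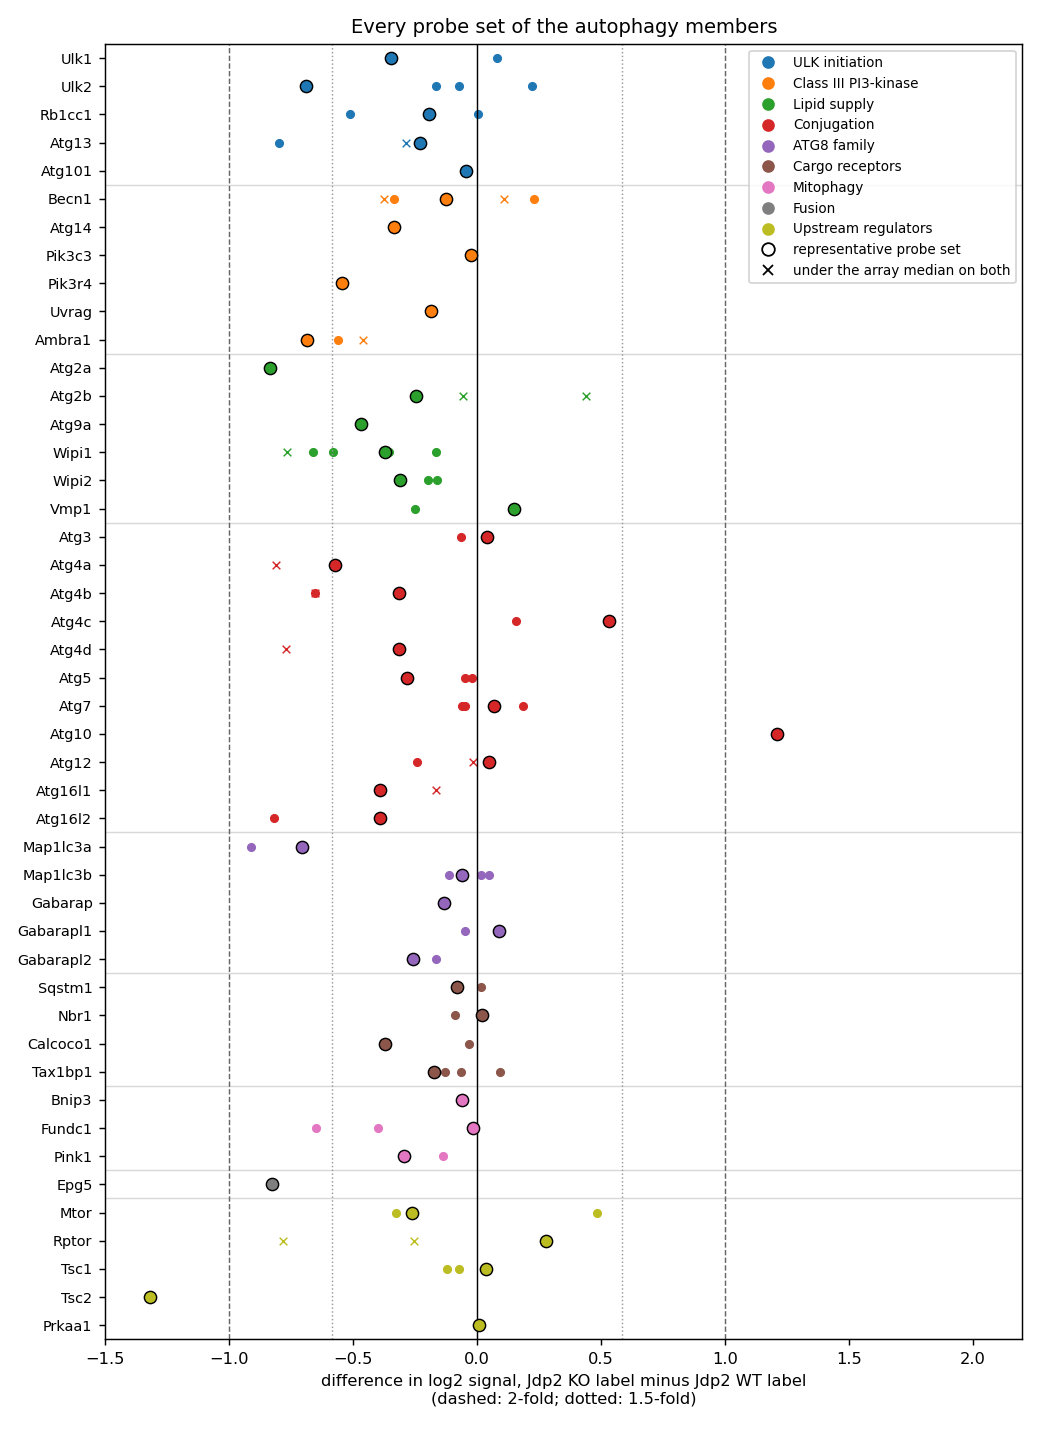
Difference in log2 signal, KO label minus WT label (horizontal axis), for all 106 probe sets of the 46 members (rows, coloured by role); the outlined point is the probe set with the highest mean, crosses are probe sets under the median on both arrays, and dashed and dotted lines mark 2-fold and 1.5-fold. Points lie mostly left of 0, all 6 of Wipi1 among them, and Tsc2 (-1.32) and Atg10 (1.21) stand past the dashed lines on 1 probe set each.

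The counts by role that follow stand beside 55.1% of all genes past the level filter below 0. The ULK initiation complex was below 0 in 5 of 5 members, with a median of -0.23. Ulk1, the kinase whose activity starts autophagosome formation, read 9.16 on the KO-labelled array and 9.51 on the WT-labelled array, a difference of -0.35, and its second probe set was at 0.08. Ulk2, its paralog, read 7.64 and 8.33 with KO and WT labels, a difference of -0.69, but its 4 probe sets ran from -0.69 to 0.22. The sign for Ulk2 thus depended on the probe set, and the mean over its 4 was -0.18. Rb1cc1, the scaffold known as FIP200, read 11.28 with the KO label and 11.47 with the WT label (-0.19). The other Rb1cc1 probe sets were at 0.004 and -0.51. Atg13, which links the kinase to that scaffold, read 6.70 and 6.93 (-0.23), and its other probe set past the filter was at -0.80. Atg101, the partner that stabilises Atg13, was almost level at 10.14 and 10.19, and its sign changed after quantile normalisation and loess.

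The lipid kinase complex of nucleation was below 0 in 6 of 6 members, with a median of -0.26. Its catalytic subunit Pik3c3, also called Vps34, makes the phosphoinositide that marks the forming membrane and read 8.79 on the KO-labelled array against 8.82 on the WT-labelled array. The sign of Pik3c3 changed after quantile normalisation and loess. Pik3r4, the Vps15 regulatory subunit, read 7.86 against 8.41 (-0.55), on a probe set marked as shared with other transcripts. Becn1, the beclin 1 scaffold, read 11.63 against 11.76 (-0.12), also on a probe set marked as shared. Its 3 probe sets past the filter ran from -0.33 to 0.23, and the one at -0.33, without that mark, read 10.97 against 11.30. By their strongest probe sets the catalytic subunit and the scaffold thus differed little, and the regulatory subunit more. Between the scaffold and the regulatory subunit, that contrast rests on shared probe sets. Atg14, which directs the complex to sites of autophagosome formation, read 5.98 against 6.32 (-0.34), not far above the array medians. Uvrag, which takes the place of Atg14 in the endosomal form of the complex, read 8.70 against 8.89 (-0.19). Ambra1, a scaffold that acts on both Becn1 and Ulk1, had the largest difference of this group at 7.63 against 8.31 (-0.68, 1.61-fold lower), and its other probe sets were at -0.56 and -0.46.

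Genes for the supply of lipid to the growing membrane were below 0 in 5 of 6 cases, with the median at -0.34. Atg2a, which carries lipids between membranes, read 8.37 with the KO label and 9.20 with the WT label, a difference of -0.83 or 1.78-fold lower, on 1 probe set. Its paralog Atg2b read 5.55 and 5.80 (-0.24), close to background, and a probe set under the median pointed the other way at 0.44. Atg9a, a membrane protein that moves lipids between the leaflets of the bilayer, read 9.98 and 10.45 (-0.47). The gene with most probe sets was Wipi1, which binds the phosphoinositide made by Pik3c3: all 6 were below 0, from -0.77 to -0.17, and the strongest read 9.68 and 10.05 (-0.37). Wipi2, which brings in Atg16l1, read 8.07 and 8.38 (-0.31), and its 3 probe sets ran from -0.31 to -0.16. Vmp1, a lipid scramblase of the endoplasmic reticulum, was the exception at 12.25 and 12.10 (0.15), although its other probe set was at -0.25.

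**Figure D3:**
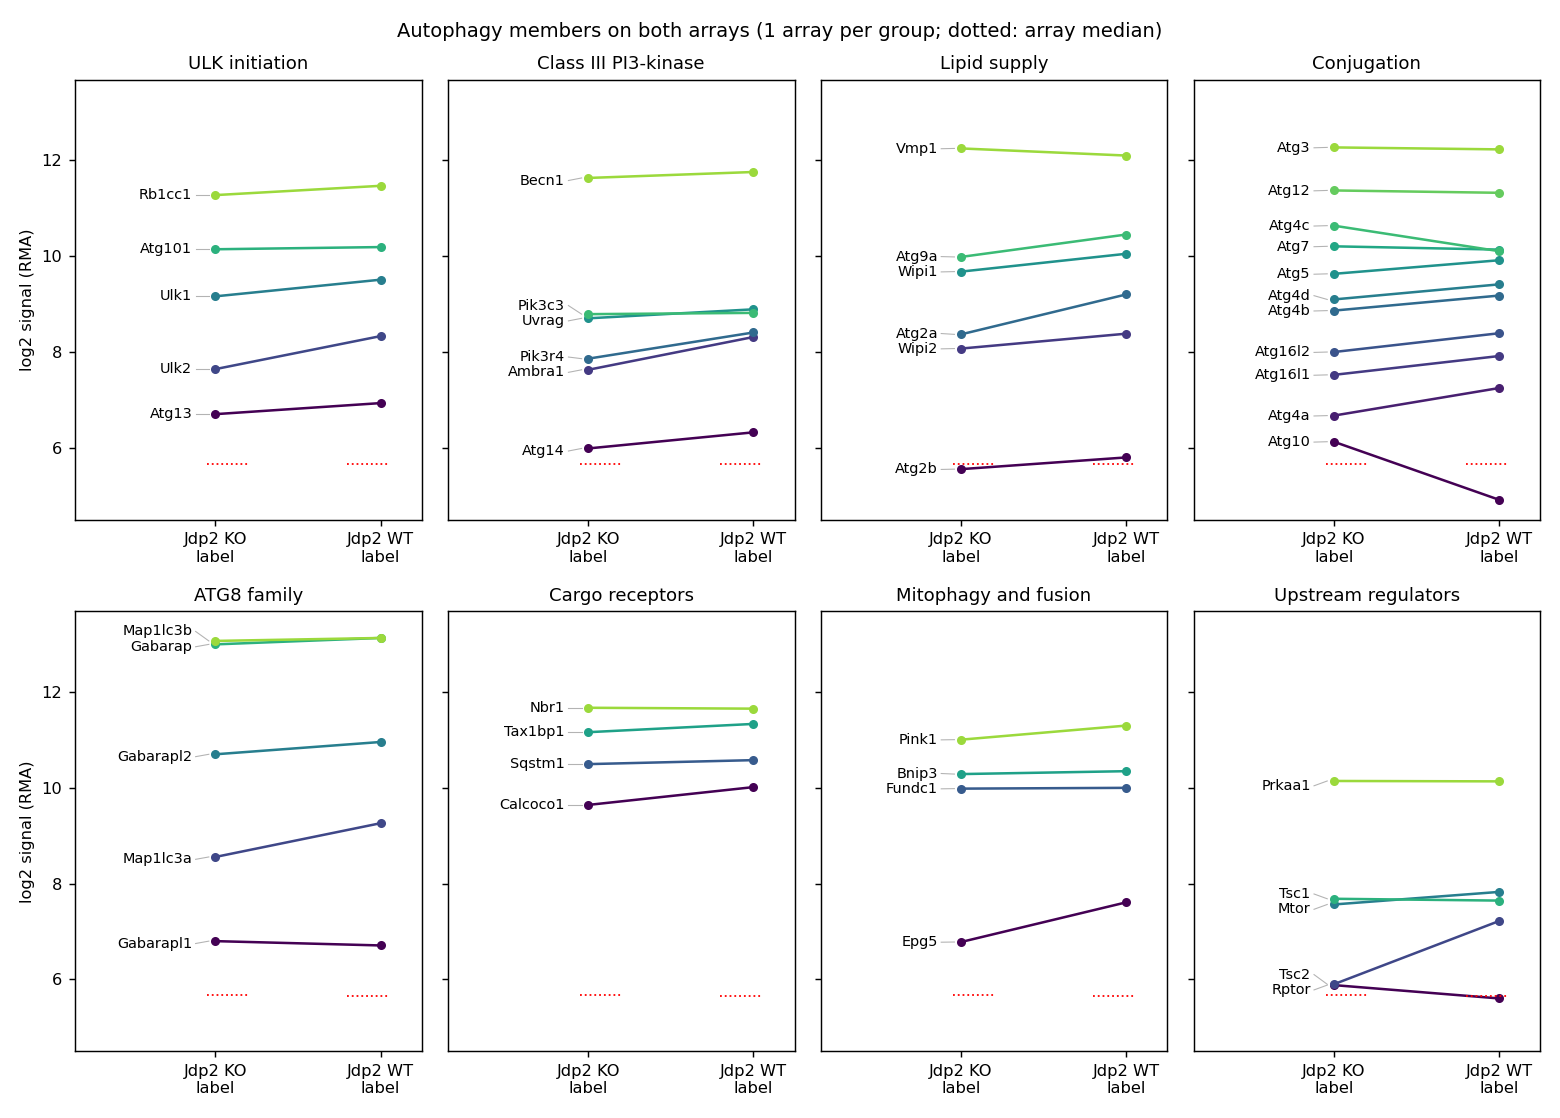
Log2 signal of the probe set with the highest mean (vertical axis) of each of the 46 members on the KO-labelled array (left point) and the WT-labelled array (right point), in panels by role; dotted red marks are the array medians, 5.67 and 5.65. Lines rise to the right for most genes, most steeply for Tsc2 (5.90 and 7.22), and Atg10 (6.12 and 4.91) falls to the right.

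The conjugation enzymes were split, with 6 of 11 below 0 and a median of -0.28. In the transfer chain, the enzymes Atg7 and Atg3 and the transferred protein Atg12 were level by their strongest probe sets. Atg7, which activates both Atg12 and the ATG8 proteins, read 10.21 on the KO-labelled array and 10.14 on the WT-labelled array (0.07). Atg3, which transfers the ATG8 proteins to lipid, read 12.27 and 12.23 (0.04), and Atg12 read 11.37 and 11.32 (0.05). Each of these 3 had probe sets on both sides of 0. Atg10, which transfers Atg12 to Atg5, was the exception and the highest difference of all members: 6.12 with the KO label and 4.91 with the WT label, 1.21 or 2.32-fold. The WT-labelled value lay under its array's median, and a fold taken against that median was 1.39. Atg10 had 1 probe set.

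Atg5, the acceptor of Atg12, read 9.63 against 9.91 (-0.28, KO label against WT label), while its other probe sets were at -0.05 and -0.02. Atg16l1, which places the Atg12 and Atg5 conjugate on the membrane, read 7.52 against 7.91 (-0.39). Its paralog Atg16l2 read 7.998 against 8.39 (-0.39), and a weaker probe set was at -0.82. By the strongest probe sets, Atg12 was level and the other parts of that complex were lower by small amounts. Another Atg12 probe set was at -0.24, and the means over all probe sets were -0.07 for Atg12 and -0.12 for Atg5. The Atg4 genes encode the proteases that trim ATG8 proteins before conjugation and release them afterwards, and 3 of the 4 were lower. Atg4a read 6.67 against 7.25 (-0.58), Atg4b 8.86 against 9.18 (-0.31) and Atg4d 9.10 against 9.41 (-0.31). Their weaker probe sets were at -0.81 for Atg4a, -0.65 and -0.65 for Atg4b and -0.77 for Atg4d. All of these but the stronger one of Atg4b lay under the median on both arrays. Atg4c went the other way at 10.64 against 10.11 (0.53, 1.45-fold), with its second probe set at 0.15, and was the highest member after Atg10.

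Among the ATG8 proteins, the ubiquitin-like proteins that coat the autophagosome, 4 of 5 were below 0 and the median was -0.13. Map1lc3b, the LC3B protein used as the standard marker of autophagosomes, read 13.07 with the KO label and 13.13 with the WT label, and its 4 probe sets lay between -0.11 and 0.05. Gabarap read 12.998 and 13.13 (-0.13). As for the neutrophil markers, such high signals can compress a difference. Gabarapl2 read 10.70 and 10.96 (-0.26), with its second probe set at -0.16, and Gabarapl1 read 6.80 and 6.71 (0.09), with its second at -0.05. Map1lc3a, the LC3A paralog, stood apart from these at 8.56 and 9.26 (-0.70, 1.63-fold lower). Its strongest probe set is marked as cross-hybridising, and the other, without that mark, gave -0.91 (7.80 and 8.71).

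Cargo receptors differed little, with 3 of 4 below 0 and a median of -0.13. Sqstm1, or p62, which ties ubiquitinated cargo to LC3, read 10.50 on the KO-labelled array and 10.58 on the WT-labelled array (-0.08). Nbr1, a receptor of related build, read 11.67 and 11.66 (0.02), and Tax1bp1 read 11.16 and 11.34 (-0.17), with 1 of its 4 probe sets at 0.09. Calcoco1, a receptor for the endoplasmic reticulum, had the largest difference of the group at 9.64 and 10.02 (-0.37), with its second probe set at -0.03. The genes for removal of mitochondria were all 3 below 0 by small amounts, although the sign of Fundc1 changed with scaling. Pink1, the kinase that marks damaged mitochondria, read 11.01 and 11.30 (-0.29). Bnip3, a receptor in the mitochondrial outer membrane, read 10.29 and 10.35 (-0.06). Fundc1, another such receptor, read 9.98 and 10.001, while its weaker probe sets were at -0.40 and -0.65. Epg5, a tether for the fusion of autophagosomes with lysosomes, read 6.78 and 7.61 (-0.83, 1.78-fold lower) on 1 probe set.

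The upstream regulators held the lowest value of all members but showed no common direction, with 2 of 5 below 0 and a median of 0.01. Tsc2, which with Tsc1 restrains the kinase complex of Mtor, read 5.90 on the KO-labelled array against 7.22 on the WT-labelled array, a difference of -1.32 or 2.50-fold lower. It had 1 probe set, and both of its values lay above the array medians, the KO-labelled one narrowly. Its partner Tsc1 was level at 7.68 against 7.65 (0.04), with the other probe sets at -0.07 and -0.12. Mtor, the kinase that holds autophagy down when nutrients are plentiful, read 7.57 against 7.83 (-0.26), but its 3 probe sets ran from -0.33 to 0.48. Rptor, the raptor subunit that brings substrates to Mtor, read 5.88 against 5.60 (0.28), near the array medians, with weaker probe sets at -0.25 and -0.78. Prkaa1, the catalytic subunit of the energy-sensing kinase AMPK that activates Ulk1, was level at 10.14 on both arrays.

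The size of the differences varied with signal. The ranges of signal used here were chosen after the values were seen. Among 14 members with a mean log2 signal from 8 to under 10, all 14 were below 0, with a median of -0.33, where 61.2% of 2690 genes in that range were below 0, with a median of -0.10. That count holds for the deposited values. Within it, Pik3c3 and Fundc1 turned above 0 after quantile normalisation (0.06 and 0.05) and after loess (0.06 and 0.04). Below 8, 10 of 14 members were below 0, with a median of -0.30, beside 50.5% of 5340 genes and a median of -0.01. At 10 or more, where 18 members lay, 11 were below 0 with a median of -0.06, beside 57.8% of 3138 genes and a median of -0.03. The excess of lower members over all genes was thus seen under a signal of 10, and the 18 members above it were close to all genes in both share and median. All 6 members at least 1.5-fold lower had mean signals under 10: 4 of the 14 under 8, where 13.5% of genes were that much lower, and 2 of the 14 from 8 to under 10, where 8.33% were.

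**Figure D4:**
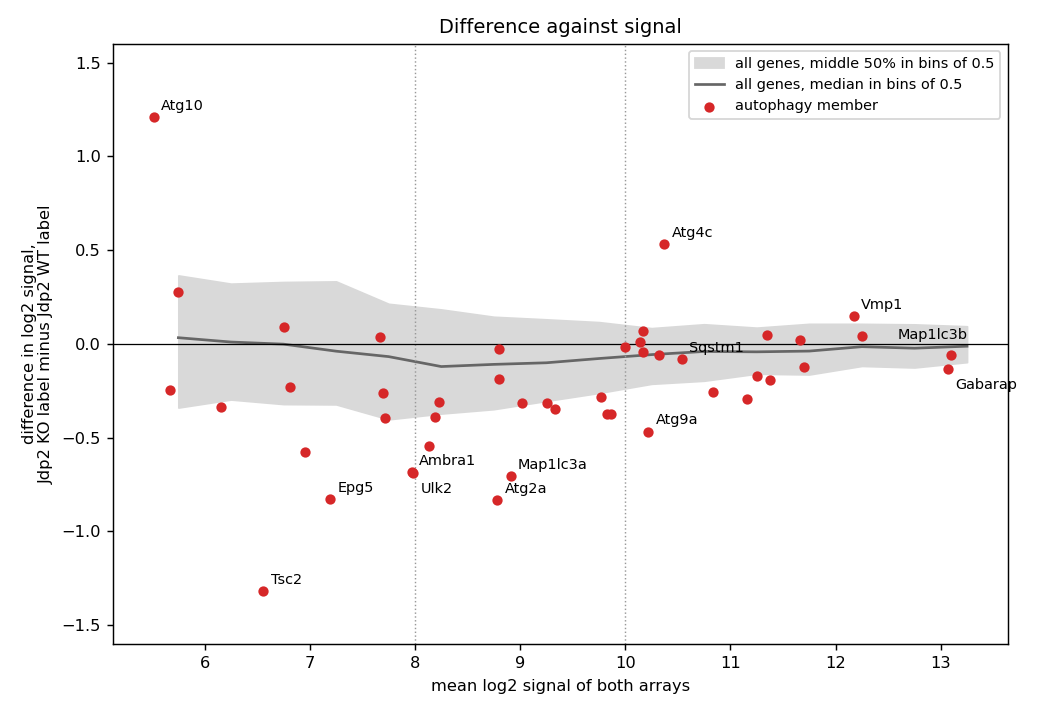
Difference in log2 signal, KO label minus WT label (vertical axis), against the mean log2 signal of both arrays (horizontal axis) for the 46 members (points); the grey line and band are the median and the middle 50% of all genes past the level filter in bins of 0.5, and dotted lines stand at 8 and 10. In the deposited values, members between 8 and 10 lie below 0 in all 14 cases. Those above 10 scatter around the grey line, apart from Atg4c (0.53) and Atg9a (-0.47).

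Other genes of the pathway, listed in 5 groups, were closer to the table as a whole. Of 58 such genes past the level filter, 37 were below 0 (63.8%, where 55.1% of all genes were), and the median was -0.08. Within 1.5-fold lay 53 of the 58, where 9231 of all 11168 genes past the filter did. The exception was Rragd, a Rag GTPase that acts in amino acid signalling to the Mtor complex on the lysosome. It read 6.17 on the KO-labelled array and 8.61 on the WT-labelled array, a difference of -2.45 or 5.45-fold lower, and was the only gene of the 58 past 2-fold. This rests on 1 probe set of 3, the others lying under the median on both arrays, and the mean over the 3 was -1.06. In the same group of AMPK, Mtor and Rag genes, 12 of 20 were below 0. Mlst8, a subunit of both Mtor complexes, read 7.72 and 8.66 (-0.94), with its 2 probe sets from -0.94 to -0.74. Prkaa2, the other catalytic AMPK subunit, read 5.02 and 5.90 (-0.87), with the KO-labelled value under the median. That too rests on 1 probe set of 3, and the mean over the 3 was -0.26.

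Of the transcription factors that act on autophagy and lysosomal genes, 4 of 7 were below 0. Tfeb, the best known of them, read 6.77 with the KO label and 7.45 with the WT label (-0.68) on 1 probe set past the filter, Zkscan3, known as a repressor of the same genes, 7.85 and 8.34 (-0.49), and Foxo1 5.87 and 5.60 (0.27). The direction for Foxo1 turned with the choice of probe set: 2 of its 4 passed the filter, both above 0, and the mean over all 4 was -0.17. The probe sets of Zkscan3 ran from -0.49 to 0.30. Genes of the fusion machinery were below 0 in 10 of 15 cases, with a median of -0.13. Vps33a, of the tethering complex on lysosomes, read 7.60 and 8.01 (-0.41, or -0.11 as the mean of its 2 probe sets), and Plekhm1, an adaptor of that complex, 10.79 and 11.14 (-0.35). Vps18, of the same complex, stood at 0.85 by its strongest probe set (7.76 and 6.91), but its 3 probe sets ran from -0.66 to 0.85, so its direction is uncertain. Genes related to the Pik3c3 complex and the WIPI proteins were below 0 in 5 of 6 cases, led by Wdr45 (9.74 and 10.06, -0.32), a WIPI protein, Tmem41b (-0.26, with 6 probe sets from -0.62 to 0.62), a scramblase that works beside Vmp1, and Rubcn (-0.18), an inhibitor of the Pik3c3 complex. Of the other receptors and adaptors, 6 of 10 were below 0, with a median of -0.02 and Bcl2l13, a mitochondrial receptor, lowest at 7.28 and 7.85 (-0.57). Tbk1, a kinase of cargo receptors, differed by -0.17 and Wdfy3, an adaptor for protein aggregates, by 0.08.

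**Figure D5:**
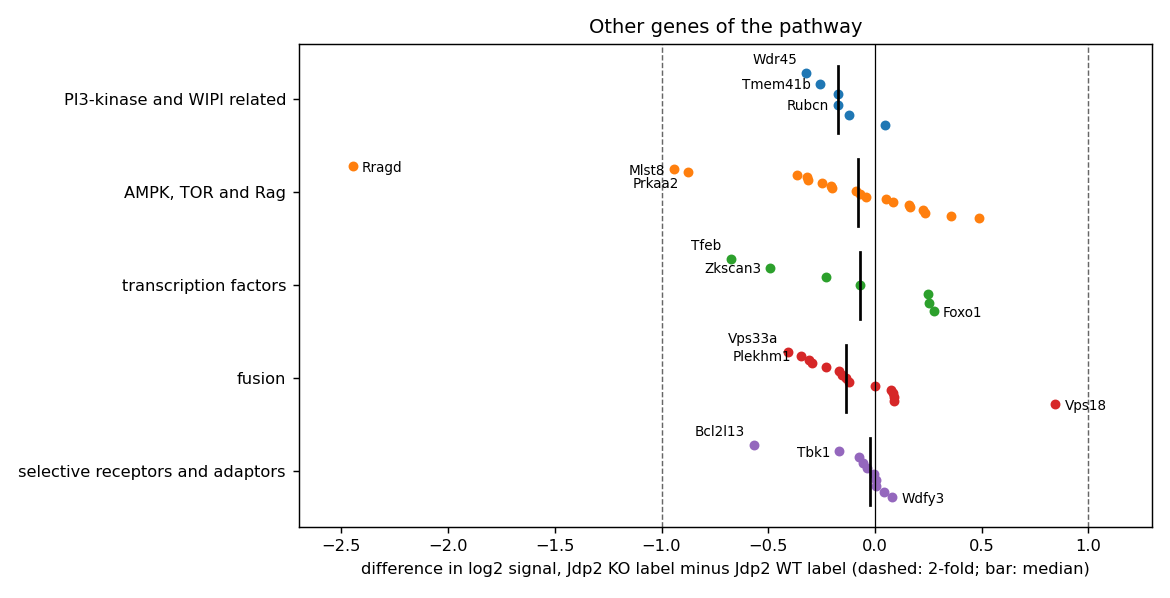
Difference in log2 signal, KO label minus WT label (horizontal axis), of the 58 other pathway genes past the level filter (points) in 5 groups (rows); black bars are group medians, dashed lines mark 2-fold, and the 3 largest differences of each group are named. Rragd (-2.45) is the only point past a dashed line, and the group medians lie between -0.17 and -0.02.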

How the data were processed

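Total RNA of sorted neutrophils was labelled with biotin and hybridised to 1 Affymetrix array per labelled genotype, per the labels' protocols. The authors deposited 1 log2 value for each probe set, for which the submitters' processing notes name RMA. The sources used here do not give its version or its background and normalisation steps. Once sorted, both columns agreed to within 0.117. RMA makes no detection call, and background within weak signals understates the folds of weak genes. Large differences were also more common among weak genes. Of genes past the level filter, 13.5% with a mean log2 signal under 8 were at least 1.5-fold lower, against 1.4% at 10 or more.

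Of 45101 probe sets, 64 controls were set aside. Of the rest, 34945 had 1 symbol in the platform annotation, 932 had several and stayed unnamed, and 9160 were unlisted. Symbols were updated by Entrez identifier against a GRCm38.p6 gene table (34741 matched, 204 kept their symbol). The probe set with the highest mean stood for its gene. A gene passed the level filter when either value reached its array's median (11168 of 18193 genes). Genes were counted at 2-fold, and at 1.5-fold as an alternative. The members and lists were chosen with earlier results of these data known. All members are named, with up to 3 genes of each other pathway list, those with the largest absolute difference past the filter. Of the marker lists, counts, medians and up to 3 markers are given. The erythroid genes past the filter, Rhag, Gata1, Ighm and the platelet genes were added after their values were seen. Alternatives were other level filters, other scalings (array medians, quantiles, loess) and other choices of probe set. Work was done in Python 3.11.15 with pandas 2.3.3 and statsmodels 0.14.6 (loess span 0.3). The comparison of ATG8 protein sequences that had been planned was not run.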

Additional observations from a re-analysis of the deposited data

How the results depend on the processing

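Of the alternatives tried, the count of members past 2-fold (2 of 46) came to 0 with the level filter at the 75th percentile, which removed Atg10 and Tsc2, to 1 with the filter on both values, which removed Atg10, and to 7 at 1.5-fold. The count of all genes past 2-fold (602) came to 197, 329 and 1937 under the same alternatives, and to 354 with the mean of all probe sets. The median difference of the members ran from -0.25 to -0.18 over the alternatives other than the filter on both values (-0.26). The share of members below 0 ran from 69.6% after quantile normalisation or loess to 88.4% with the mean of all probe sets. The 69.6% stands beside 51.4% (quantiles) and 50.7% (loess) of all genes. The 88.4% is 38 of the 43 members past the filter under that mean, where 58.7% of all genes were below 0. That mean changed the sign of 7 members (Atg2b, Vmp1, Atg3, Atg12, Nbr1, Rptor and Tsc1) and moved 12 by more than 0.17, and leaving out probe sets marked as shared changed the sign of Gabarapl1 and moved 3 (Becn1, Wipi1 and Map1lc3a). The cause was not tested. Pik3r4 has no unmarked probe set. No paired analysis was possible because each group has 1 array.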
